A study of Mus musculus with 4 samples.

Results

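Coverage of 10 contactin and contactin-associated protein genes by peaks of H3K9me3, a mark on histones of silent chromatin, was described in cultured mouse muscle stem cells with and without Setdb1 deletion. The members, out of 21887 protein-coding genes in the RefSeq table, were Cntn1, Cntn3, Cntn4, Cntn5, Cntn6, Cntnap2, Cntnap4, Cntnap5a, Cntnap5b and Cntnap5c. They were chosen by name with their peak coverage in these 2 lists already known, so the coverage below is a description and carries no test. Of them, 4 lie on chromosome 6 (Cntn3, Cntn4, Cntn6 and Cntnap2) and 6 elsewhere.

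The study immunoprecipitated H3K9me3 from muscle stem cells sorted with magnetic beads and grown in culture. One culture was exposed for 72 h to 4-hydroxytamoxifen, which induces deletion of Setdb1, and is labelled Setdb1lox/lox;Pax7GakaCreERT3. The control received ethanol for the same time and is labelled Setdb1lox/lox;Pax7GakaCreERT2. Both therefore carried the floxed Setdb1 alleles and a Cre recombinase linked by name to Pax7, a muscle stem cell gene, so deletion is limited to cells in which that Cre is active. The digit that ends the Cre name differs between the labels, a difference the sources used here do not explain. Each condition had 1 H3K9me3 library, which leaves every difference without a check between replicates, and no p-value was computed. The peaks of the 4-hydroxytamoxifen culture are called the deleted list and those of the ethanol culture the control list. Sequencing depth is unknown, and the sources used here give no age, sex or number of animals. The deleted list held 113503 peaks over 133664 kb of the main chromosomes and the control list 105709 peaks over 133272 kb. None of 7 muscle stem cell and myoblast genes examined (among them Pax7, Myf5 and Myod1) overlapped a peak in either list, within the gene plus 5 kb. The same held for 3 fibro-adipogenic and 2 endothelial marker genes, while the blood marker Ptprc met 1 deleted-list peak. The share of all genes without a peak was not computed. Low coverage was common, since 433 of 1126 protein-coding genes of chromosome 6 and 5709 of 20761 elsewhere reached 1% in either list. Those genes are of every length, while the 7 muscle genes span 2.62 to 96.5 kb. Peaks do not measure RNA, so these markers test neither the identity of the cells nor the deletion of Setdb1. Of 5 neuronal marker genes, 3 were covered at 1% or more in either list, none above 4.29% in the deleted list or 4.95% in the control list.

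Contactins are cell adhesion proteins of the immunoglobulin superfamily, tethered to the neuronal or glial surface by a lipid anchor. Contactin-associated proteins are transmembrane relatives of neurexins, and pairs from both families hold axons and glia together and organise synapses and the edges of the node of Ranvier. SETDB1 is a methyltransferase that places H3K9me3, a mark that proteins of the HP1 family read and that is found over silent genes and repeats. The family is known for its work in the nervous system, and most of its genes span very long stretches of DNA.

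The 4 genes on chromosome 6 were covered less in the deleted list and the 6 elsewhere slightly more. A gene window here is the gene plus 5 kb on both sides, and coverage is the percent of its bases inside peaks. Together the windows on chromosome 6 were covered at 15.0% in the deleted list and 34.4% in the control list, a deleted-to-control ratio of 0.437. The windows elsewhere were covered at 16.2% in the deleted list and 15.0% in the control list, a ratio of 1.08. To any degree, 83.1% of the covered protein-coding genes of chromosome 6 were lower in the deleted list, and 56.0% of those on other chromosomes were higher. In the deleted list the pooled levels of the chromosome 6 genes and the genes elsewhere therefore stood close together, and in the control list they stood far apart.

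**Figure D1:**
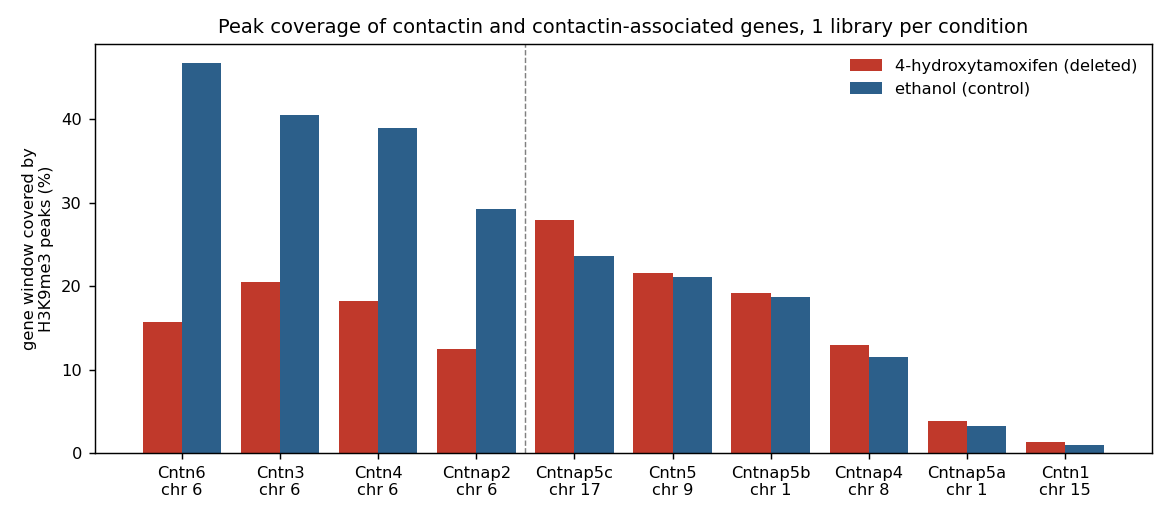
Bars give the percent of each gene window (gene plus 5 kb on both sides) inside H3K9me3 peaks in the 4-hydroxytamoxifen culture (left bar) and the ethanol culture (right bar), with 1 library each and no error bars. Left of the dashed line, the 4 genes on chromosome 6 run from 12.5 to 20.5% in the deleted list and from 29.2 to 46.7% in the control list, and right of it the bars of each pair are close.

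Cntn6, a contactin that acts on neurite growth and can bind Notch, spans chromosome 6 from 104492662 to 104863406 (mm10) on the plus strand. It was covered at 15.7% in the deleted list and 46.7% in the control list, a difference of -31.0 percentage points and a ratio of 0.336. Of the 10 genes it had the highest coverage in the control list, the largest difference in points and the lowest ratio. Peaks in its window numbered 64 in the deleted list and 84 in the control list, with median widths of 738.5 bp and 1597 bp. The number of peaks thus differed by less than the bases they covered. The widest control peak, 8617 bp from 104721217 to 104729833, was covered over 8.73% of its length by deleted-list peaks. It was picked by its width in the control list, so this share is no measure of a loss. For the widest control peak of each gene elsewhere, the share ran from 10.6% at Cntnap4 and 13.4% at Cntn5 to 100% at Cntn1. Stretches of 10 kb covered at 50% or more numbered 0 of 38 in the deleted list and 18 of 38 in the control list.

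Cntn3, a contactin of neurons, spans 102163304 to 102564614 on the minus strand of chromosome 6. Its coverage was 20.5% in the deleted list and 40.5% in the control list, a ratio of 0.507, with 70 and 90 peaks. The control peak of highest confidence over it, from 102290115 to 102290653 with an authors' fold enrichment of 3.59, lay wholly inside deleted-list peaks. Its widest control peak, 7776 bp, was covered over 47.7% of its length in the deleted list. That share was larger for Cntn3 than for the widest control peak of Cntn6.

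Cntn4, known in mice for guiding the axons of olfactory neurons, spans 105677632 to 106700141 on the plus strand of chromosome 6. The gene was covered at 18.2% in the deleted list and 39.0% in the control list, a ratio of 0.467, with 171 and 213 peaks. Of its 103 stretches of 10 kb, 87 were covered less in the deleted list, 15 more and 1 equally. At the largest fall, from 106252632 to 106262631, the deleted list had no peak, while 78.8% of the bases were covered in the control list. At the largest rise, from 106062632 to 106072631, the values were 27.2% in the deleted list and 4.99% in the control list. Coverage dropped past the far end of the gene in both lists. The 500 kb beyond its window on the higher-coordinate side, which is downstream, were covered at 1.44% in the deleted list and 3.91% in the control list. On the upstream side the corresponding values were 20.6% and 38.4%.

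Cntnap2, which encodes a partner of contactins that gathers potassium channels beside the node of Ranvier, is the longest of the 10 genes at 2241 kb. It spans 45060061 to 47301393 on the plus strand of chromosome 6. Its window was covered at 12.5% in the deleted list and 29.2% in the control list, a ratio of 0.427, with 257 and 401 peaks. The widest control peak over any of the 10 genes lay here, 12781 bp from 45643225 to 45656005, and 8.46% of it was covered by deleted-list peaks. Like that of Cntn6, this peak was picked by its width in the control list. The deleted-list peak of highest confidence over the gene, from 46768278 to 46768727, had an authors' −log10 q of 4.36 and no base in common with a control peak. Differences at single peaks in this gene therefore ran in both directions.

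Coverage of Cntnap2 fell away towards the 3′ end in both lists. With the gene cut into 10 equal segments from its start site, the fourth segment was covered at 23.5% in the deleted list and 40.2% in the control list. The ninth was covered at 5.92% in the deleted list and 20.2% in the control list, and the last at 1.24% and 2.98%. The longest stretch with no peak measured 96.8 kb among deleted-list peaks, from 47115100 to 47211854, and 142.3 kb among control peaks, from 47119904 to 47262192. These stretches overlap, so the 3′ part that lacked peaks was largely the same in both cultures. The 500 kb beyond the window on that side were covered at 0.776% in the deleted list and 1.78% in the control list.

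**Figure D2:**
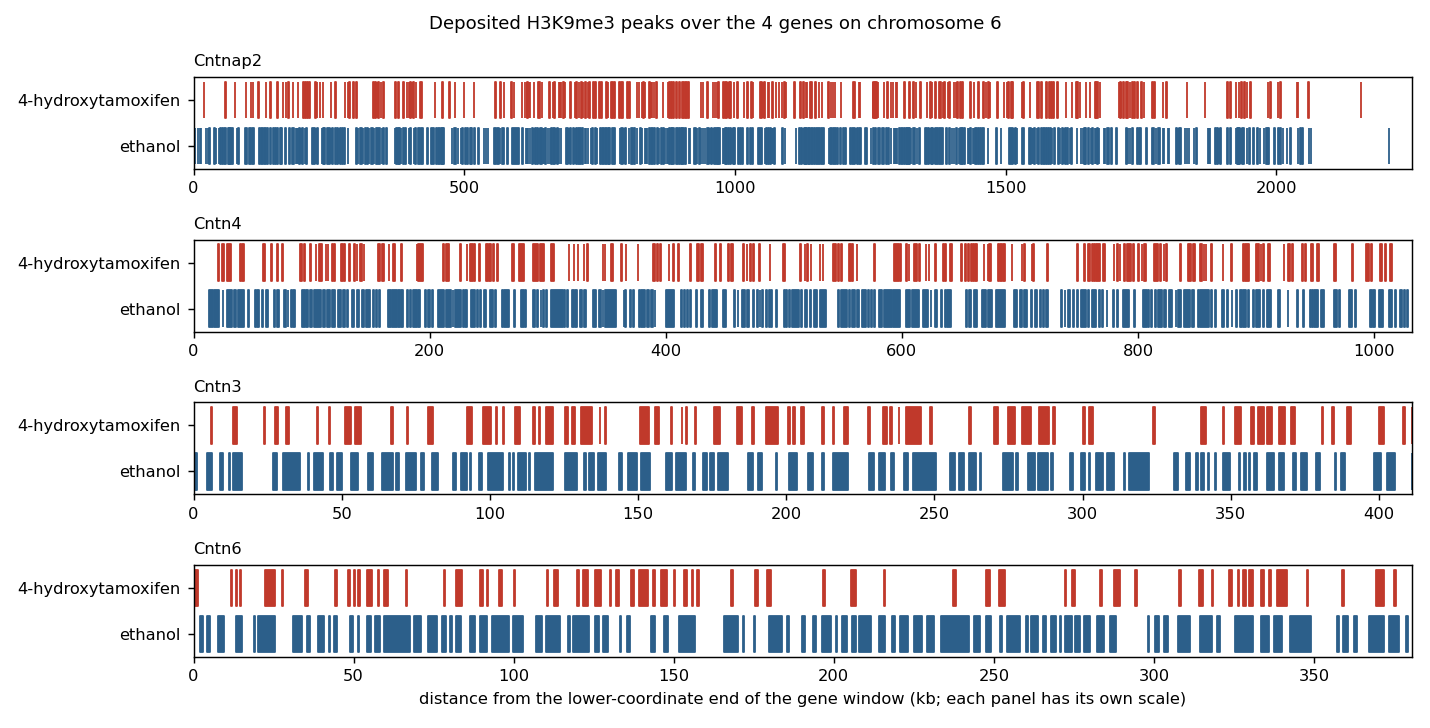
Each filled box is a stretch inside deposited H3K9me3 peaks over the 4 gene windows of chromosome 6, plotted by distance in kb from the lower-coordinate end, with the 4-hydroxytamoxifen culture above the ethanol culture. The ethanol row is fuller along Cntn6, Cntn3, Cntn4 and most of Cntnap2, while the right end of Cntnap2 is nearly empty in both rows.

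The lower coverage on chromosome 6 ran along the whole of each gene. All 40 segments of the 4 genes were covered less in the deleted list. The narrowest gap was at the fourth segment of Cntn6, at 32.3% in the deleted list and 36.6% in the control list, leaving aside the sparse last segment of Cntnap2. The sixth segment of Cntn6 was at 7.68% in the deleted list and 52.5% in the control list. Over 407 stretches of 10 kb in these windows, 327 were covered less in the deleted list, 62 more and 18 equally. Stretches covered at 50% or more numbered 7 in the deleted list and 90 in the control list. Over the 418 stretches of the genes elsewhere they numbered 19 and 6. Segments and stretches were not counted over the rest of chromosome 6, where the ratio of covered bases was 0.511.

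**Figure D3:**
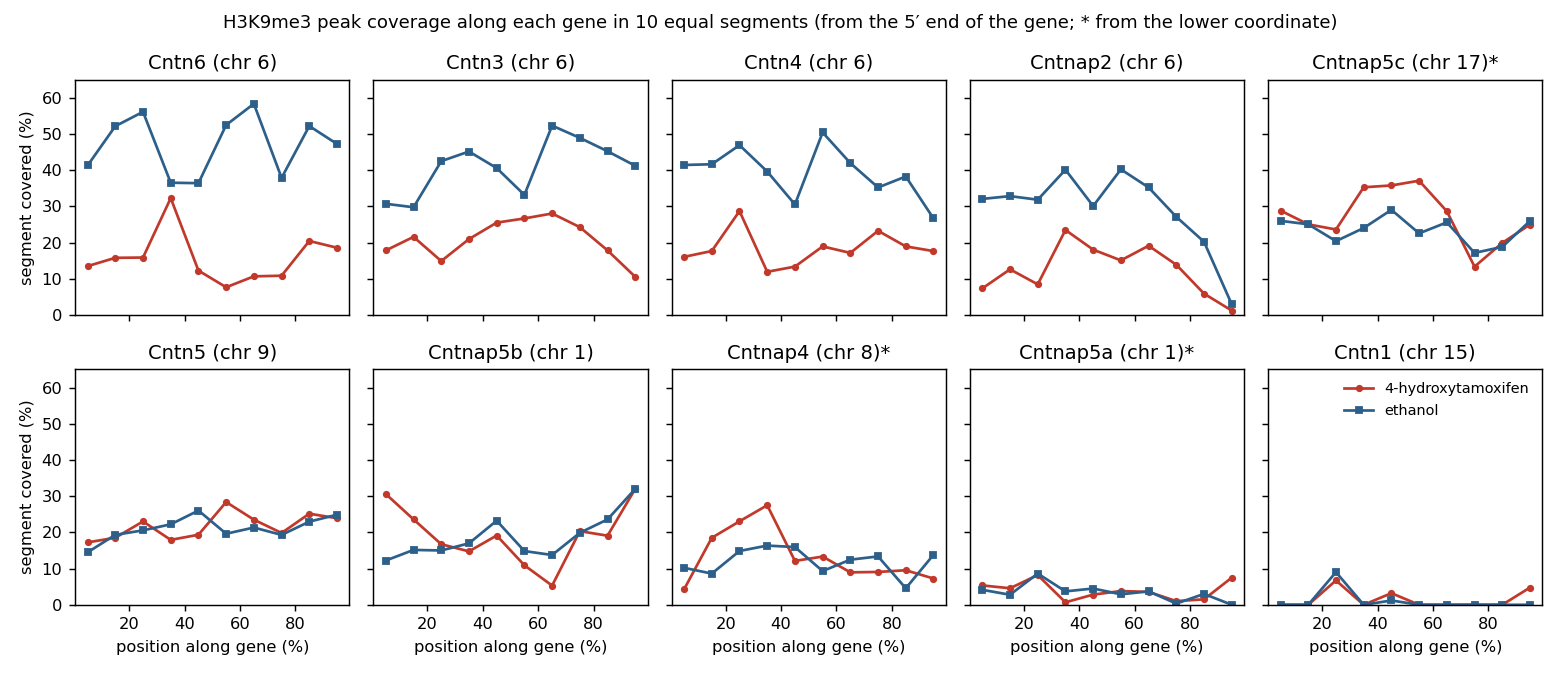
Lines give the percent of each of 10 equal segments along every gene inside H3K9me3 peaks, in the 4-hydroxytamoxifen (circles) and ethanol (squares) cultures, from the 5′ end of the gene for 7 genes and from the lower coordinate for the 3 marked with an asterisk, which have no strand in the tables used. In the chromosome 6 panels all 40 segments are lower in the 4-hydroxytamoxifen culture, and in the other panels the lines cross.

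Chromosome 6 as a whole moved with these genes. Outside the 4 windows, deleted-list peaks covered 7117 kb of chromosome 6 and control peaks 13924 kb, a ratio of 0.511. Cntn3, at 0.507, stood next to that value, and Cntn4, Cntnap2 and Cntn6 stood progressively below it. Among the other autosomes, again outside the member windows, the ratio ran from 0.844 on chromosome 14 to 1.23 on chromosome 7. On the X, counted here among the other chromosomes, it was 2.26. Why chromosome 6 and the X stood apart from the rest was not tested. Set against the rest of the chromosome, the summed coverage of the 4 genes had a log2 ratio of -0.23, against -1.20 without that scaling. With 1 library per condition, a difference between libraries and an effect of the deletion cannot be told apart, nor can fewer cells with the mark from less of the mark per cell.

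Most covered genes of chromosome 6 were lower too. All 4 members had a ratio at or under 1/1.5, the fold used here to call a difference. Among the 433 protein-coding genes of chromosome 6 covered at 1% or more in either list, 69.7% did so. Their median ratio was 0.459. Among the 44 of these genes that are 200 kb or longer, the share at or under 1/1.5 was 77.3% and the median ratio 0.512. By ratio from the lowest, Cntn6 stood at place 10 of those 44 long genes, Cntnap2 at 14, Cntn4 at 18 and Cntn3 at 22. By coverage in the control list Cntn6 stood at place 1, Cntn3 at 2, Cntn4 at 3 and Cntnap2 at 7. By coverage in the deleted list the places were 6 for Cntn6, 2 for Cntn3, 3 for Cntn4 and 7 for Cntnap2. All 4 were thus among the 7 most covered of the 44 in both lists, while their ratios lay in the lower 22 places.

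**Figure D4:**
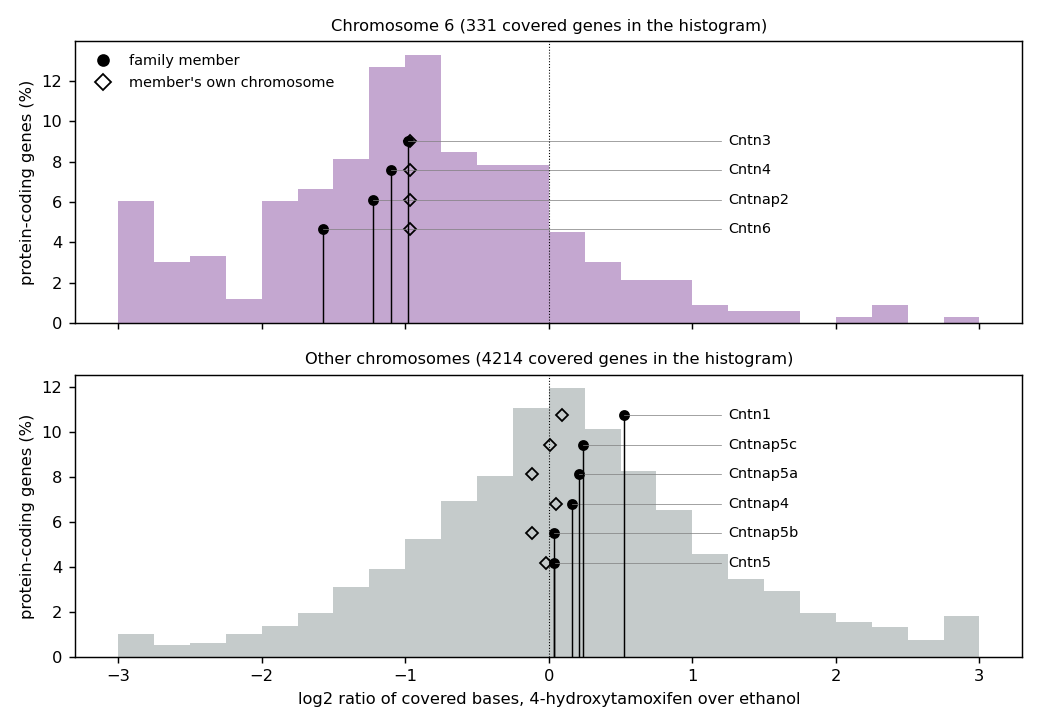
Filled circles give the log2 ratio of covered bases (4-hydroxytamoxifen over ethanol) of each of the 10 genes, and open diamonds that of the rest of its chromosome. Histograms give the percent of protein-coding genes with peaks in both lists and coverage of 1% or more in either (331 on chromosome 6, 4214 elsewhere), with values beyond the axis placed in the end bins. The 4 genes on chromosome 6 lie between -1.57 and -0.98, where many genes of their chromosome lie, and the 6 others between 0.03 and 0.53.

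Peaks over the chromosome 6 genes were narrower in the deleted list. Their median width was 830 bp in the deleted list and 1303 bp in the control list, and their number was 562 and 788, a ratio of 0.713. The median width over the 6 genes elsewhere was 912.5 bp in the deleted list and 1014.5 bp in the control list, with 570 and 494 peaks. Over the whole of chromosome 6 the median widths were 799.5 bp and 1051 bp. Of the deleted-list peaks over the chromosome 6 genes, 168 of 562 (29.9%, exact 95% interval 26.1 to 33.9%) had no base in common with a control peak. In the other direction, 435 of 788 control peaks there (55.2%, 51.7 to 58.7%) met no deleted-list peak. Over the rest of chromosome 6 these shares were 33.6% of 6658 deleted-list peaks and 55.4% of 9242 control peaks, close to those of the 4 genes. Over the genes elsewhere the shares were 52.3% of 570 deleted-list peaks (48.1 to 56.4%) and 44.5% of 494 control peaks (40.1 to 49.0%). The rest of the other chromosomes stood at 51.0% of 105713 deleted-list peaks and 46.1% of 95185 control peaks, inside both intervals. The intervals cover counting error only, and a list that covers more of a window also offers more partners.

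Among the genes elsewhere, coverage ran over a wide range, from 1.42 to 27.9% in the deleted list and from 0.987 to 23.7% in the control list, and no gene differed by more than 4.21 points. Cntnap5c, Cntnap5a and Cntnap5b are mouse relatives of the human gene CNTNAP5, whose protein belongs to the neurexin superfamily. Cntnap5c, on chromosome 17 from 57769074 to 58417953, was covered at 27.9% in the deleted list and 23.7% in the control list, a difference of 4.21 points. That was the largest difference in points among the 6, and Cntnap5c had the highest coverage of all 10 genes in the deleted list. Its middle segments differed most, with the sixth from the lower coordinate at 37.1% in the deleted list and 22.6% in the control list. Cntnap5b, on chromosome 1 from 99772246 to 100490599 on the plus strand, was covered at 19.2% in the deleted list and 18.7% in the control list.

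An equal total did not mean equal positions. The first segment of Cntnap5b was covered at 30.6% in the deleted list and 12.2% in the control list, and the seventh at 5.30% and 13.8%. Its last segment stood at 32.0% in both lists. The 2 lists shared 32.3% of the deleted-list bases and 33.1% of the control bases over this gene. A predicted protein-coding gene, Gm29667, also lies in this window, and no other member's window holds a second protein-coding gene.

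Cntnap5a, on the same chromosome from 115684737 to 116587323, was sparsely covered in comparison with its relatives, at 3.86% in the deleted list and 3.33% in the control list. The 500 kb on its higher-coordinate side were covered at 27.3% in the deleted list and 27.2% in the control list, and those on the other side at 8.88% and 8.57%. The gene was thus covered less than the DNA on both of its sides in both cultures. Its widest peak was also its most confident one in each list, from 116050290 to 116052826 in the deleted list and from 116048767 to 116052826 in the control list, ending at the same base.

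Cntn5, which in mice serves the auditory pathway, spans 9634223 to 10904775 on the minus strand of chromosome 9. Its coverage was 21.6% in the deleted list and 21.1% in the control list, with 230 and 199 peaks. Segments ranged from 17.2 to 28.4% in the deleted list and from 14.5 to 26.0% in the control list. Single stretches of 10 kb differed more. The stretch from 10769223 to 10779222 had no deleted-list peak and stood at 59.1% in the control list. The one from 10119223 to 10129222 was covered at 51.0% in the deleted list and 3.16% in the control list.

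Cntnap4, which acts at synapses of inhibitory and dopamine neurons in mice, spans 112569798 to 112882707 on chromosome 8. It was covered at 12.9% in the deleted list and 11.6% in the control list, with 47 and 38 peaks. The fourth segment of Cntnap4 from the lower coordinate was the most covered in both lists, at 27.5% in the deleted list and 16.4% in the control list.

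Cntn1, which joins Cntnap1 at the junctions between axon and myelin, had the lowest coverage of the 10 genes. The gene spans 92051152 to 92341967 on the plus strand of chromosome 15 and was covered at 1.42% in the deleted list and 0.987% in the control list, with 4 peaks in each. Its ratio of 1.44 rests on 4.28 kb of deleted-list peaks and 2.97 kb of control peaks. One peak of Cntn1 began at the same base in both lists, 92117492, and ended at 92119150 in the deleted list and 92119127 in the control list.

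None of the 6 genes elsewhere passed a fold of 1.5 in either direction. Among the 5709 covered protein-coding genes outside chromosome 6, 37.7% had a ratio at or over 1.5 and 27.9% one at or under 1/1.5, and among the 506 of 200 kb or more these shares were 28.5% and 14.4%. All 6 members were covered more in the deleted list, against 56.0% of the 5709 and 60.3% of the long genes. The median ratio of the 6 was 1.14, against 1.12 and 1.11 in the same gene sets. By coverage in the control list, Cntnap5c stood at place 16 of the 506, Cntn5 at 25, Cntnap5b at 38, Cntnap4 at 76, Cntnap5a at 183 and Cntn1 at 432.

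**Figure D5:**
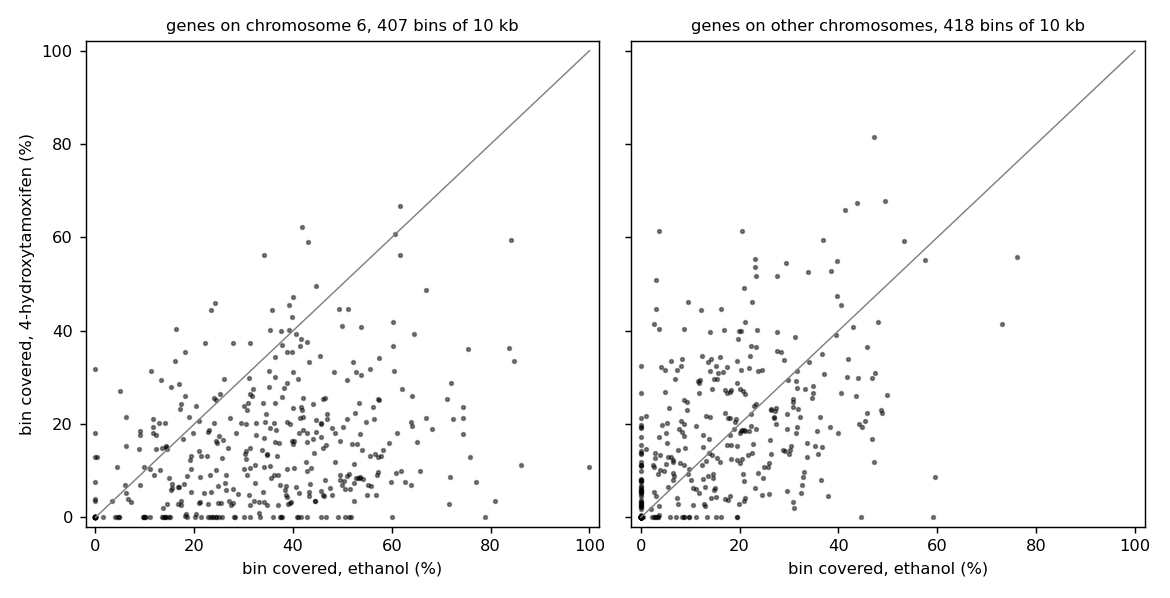
Each point is a stretch of 10 kb within a gene window, plotted by its percent inside peaks in the ethanol culture (x) and the 4-hydroxytamoxifen culture (y), with the line of equality. Of the 407 stretches on chromosome 6, 327 lie below the line, and of the 418 elsewhere, 161 lie below and 178 above it.

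Which stretches of a gene were fuller agreed only in part between the lists. Across stretches of 10 kb, Pearson's r between the lists was 0.01 over 38 stretches of Cntn6, 0.16 over 103 of Cntn4, 0.23 over 41 of Cntn3 and 0.39 over 225 of Cntnap2. Elsewhere it ran between 0.23 over 32 stretches of Cntnap4 and 0.73 over 30 of Cntn1, where 26 were empty in both lists. The stretches of a gene share their libraries and their neighbourhood, so these values describe the lists and carry no p-value. They compare how full the stretches were and not whether single peaks overlapped. Of the deleted-list bases over Cntn6, 65.2% lay inside control peaks, which covered 46.7% of its window. That share was the largest of the 10 genes, and the smallest was 22.8% at Cntnap4, where control peaks covered 11.6% of the window.

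The order of the genes changed between the lists through chromosome 6. From highest to lowest, the control list ran Cntn6, Cntn3, Cntn4, Cntnap2, Cntnap5c, Cntn5, Cntnap5b, Cntnap4, Cntnap5a and Cntn1. The deleted list ran Cntnap5c, Cntn5, Cntn3, Cntnap5b, Cntn4, Cntn6, Cntnap4, Cntnap2, Cntnap5a and Cntn1. With 1 library per condition no spread is available to say which neighbours in these orders differ.

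These comparisons depended on the confidence of the peaks. Peaks with an authors' −log10 q of 2 or more made up 5.52% of the deleted-list peaks and 18.9% of the control peaks over the chromosome 6 genes. Over the genes elsewhere they were 43 of 570 deleted-list peaks and 84 of 494 control peaks, and over the main chromosomes together 11.5% of the deleted list and 18.8% of the control list. Among such peaks the log2 deleted-to-control ratio of covered bases was -3.54 for the chromosome 6 genes and -2.18 for the rest of that chromosome. It turned to -1.39 for the genes elsewhere, where 5 of 6 were then covered less, and was -0.50 for the other chromosomes outside these genes. Cntnap5c then stood at 1.71% in the deleted list and 7.23% in the control list, and Cntn5 at 1.48% and 3.04%. The near equality of pooled coverage elsewhere therefore held for all deposited peaks and not for those at −log10 q of 2 or more. It also held for peaks at or above their list's median fold, with a log2 ratio of 0.0036, where 3 of the 6 genes were covered less. At −log10 q of 3 or more the log2 ratio was -1.85 for the chromosome 6 genes and -1.99 elsewhere, so the groups no longer stood apart. The rest of chromosome 6 was then at -2.38 and the other chromosomes outside these genes at -0.56. Only 2 deleted-list and 6 control peaks were left over the chromosome 6 genes, and 1 and 4 elsewhere.

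Start sites were compared through the RefSeq promoter sequences of assembly GRCm38.p6, whose coordinates are those of mm10. The table had 12 sequences for 7 of the 10 genes (all but Cntnap4, Cntnap5a and Cntnap5c), each with 250 bases before and 50 after a start. Of these 12, 2 overlapping ones of Cntn4 met a deleted-list peak and 1 of Cntn3 a control peak. Of all 32851 promoters listed, 1.93% met a deleted-list peak and 1.75% a control peak, and on chromosome 6 2.04% and 3.86%. Being free of peaks was therefore the rule for promoters in general. Of the 12 starts, 6 lay within 1 kb of the 5′ end of the gene's coordinates, and none of their promoters met a peak. The other 6 lay deeper inside Cntn1, Cntn3, Cntn4 and Cntnap2, and the 3 that met a peak were all among them. The Cntn3 start lay 99.9 kb and those of Cntn4 about 441 kb inside the gene, so for these genes the start and the gene body were not compared. Both promoters that lay wholly within a peak are shown with those of Cntn5 and Cntnap5b, which lay outside peaks, and capitals mark the dinucleotide CG, which reads alike on both strands.
Cntn3, minus strand, chr6:102464618-102464917: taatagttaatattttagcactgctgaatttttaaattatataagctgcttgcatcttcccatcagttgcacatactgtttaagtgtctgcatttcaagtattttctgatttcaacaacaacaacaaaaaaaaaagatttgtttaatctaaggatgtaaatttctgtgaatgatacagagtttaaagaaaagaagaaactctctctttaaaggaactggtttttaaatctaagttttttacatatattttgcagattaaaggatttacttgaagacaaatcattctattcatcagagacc
Cntn4, plus strand, chr6:106118692-106118991: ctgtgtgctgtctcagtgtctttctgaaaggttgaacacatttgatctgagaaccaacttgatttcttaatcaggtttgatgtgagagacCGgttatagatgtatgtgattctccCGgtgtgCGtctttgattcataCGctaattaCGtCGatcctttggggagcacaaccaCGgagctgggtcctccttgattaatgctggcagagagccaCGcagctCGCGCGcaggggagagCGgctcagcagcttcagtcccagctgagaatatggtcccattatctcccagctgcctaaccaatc
Cntn5, minus strand, chr9:10904677-10904976: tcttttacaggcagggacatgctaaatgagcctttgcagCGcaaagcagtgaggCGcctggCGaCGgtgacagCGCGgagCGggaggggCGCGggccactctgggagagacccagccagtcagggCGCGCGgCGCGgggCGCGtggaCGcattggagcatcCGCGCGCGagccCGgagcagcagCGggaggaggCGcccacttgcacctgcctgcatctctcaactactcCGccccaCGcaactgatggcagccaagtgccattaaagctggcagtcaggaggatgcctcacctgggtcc
Cntnap5b, plus strand, chr1:99772151-99772450: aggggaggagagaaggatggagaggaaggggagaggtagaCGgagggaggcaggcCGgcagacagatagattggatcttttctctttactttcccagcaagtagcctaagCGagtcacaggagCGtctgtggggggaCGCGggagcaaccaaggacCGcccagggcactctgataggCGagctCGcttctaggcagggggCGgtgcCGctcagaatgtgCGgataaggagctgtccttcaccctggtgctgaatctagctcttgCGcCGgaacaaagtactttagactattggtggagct

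The Cntn3 promoter held 0 CG dinucleotides and 27.7% G and C, and the whole of it lay in a control peak from 102462879 to 102465055. The nearest deleted-list peak ended 2883 bp from its start site. The Cntn4 promoter held 12 CG dinucleotides and lay in a deleted-list peak from 106118644 to 106119716, whose authors' −log10 q was 1.14, while the nearest control peak was 2612 bp away. The Cntn5 promoter held 26 and the Cntnap5b promoter 14, against a median of 7 over all promoters listed, of which 94.6% held at least 1. The nearest peak to the Cntn5 start was 4858 bp away in the deleted list and 8718 bp away in the control list. For Cntnap5b these distances were 2497 bp and 1134 bp. The main Cntnap2 start, at 45060061, was 14056 bp from a deleted-list peak and 1943 bp from a control peak. Within 5 kb of the Cntn6 start, 9.65% of bases were covered in the deleted list and 38.7% in the control list, although its promoter met no peak in either. No comparison of CG content with coverage was made, since only 7 genes had a promoter here.

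The rest of the family either had no called peak or was densely covered by peaks. Cntn2 and Cntnap1, which organise the axon beside and at the edge of the node of Ranvier, were free of peaks in both lists. Both are short, at 33.8 kb and 16.1 kb. Cntnap3, a gene of 166 kb on chromosome 13, was covered at 43.6% in the deleted list and 34.8% in the control list, a ratio of 1.25, with 38 and 41 peaks. Its deleted-list coverage was above that of every one of the 10 genes, and its control coverage lay between those of Cntnap2 and Cntn4.

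Of 27 neighbours and partners of the family, 15 were covered at 1% or more in either list. Over all protein-coding genes, 433 of 1126 on chromosome 6 and 5709 of 20761 elsewhere were so covered. Among genes of 200 kb or more, these counts were 44 of 64 and 506 of 926, and the 27 hold both long and short genes. Of these 15, 3 lie on chromosome 6, and 2 of them, Chl1 and Kcna1, had a ratio at or under 1/1.5, against 69.7% of the covered genes of that chromosome. Of the 12 elsewhere, 5 had a ratio at or under 1/1.5 and 1, Dscam, a ratio at or over 1.5, against 27.9% and 37.7% of the covered genes there. These counts rest on few genes and were not tested. No peak in either list was found for 8 of the 27, and the share of all genes without a peak was not computed here. The median coverage of the 27 was 0.598% in the deleted list and 1.43% in the control list. Chl1, a cell adhesion gene of the L1 family that lies between Cntn3 and Cntn6 on chromosome 6, was covered at 16.5% in the deleted list and 34.4% in the control list. Kcna1, a potassium channel gene also on chromosome 6, had no deleted-list peak and was covered at 4.29% in the control list by 1 peak. Ncam2, a neural cell adhesion gene on chromosome 16, stood at 16.1% in the deleted list and 24.9% in the control list. The largest differences in the other direction were for Tenm2, a teneurin, at 19.7% in the deleted list and 15.5% in the control list, and for Dscam, a cell adhesion gene, at 6.46% and 3.60%. Nrxn3, a neurexin, followed with a difference of 1.49 points.

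Genes of 200 kb or more were ranked by their distance from the pooled coverage of the members in the plane of both lists. Nearest to the chromosome 6 genes among 980 candidates was Lrrtm4, a synaptic adhesion gene on the same chromosome, at 16.1% in the deleted list and 34.5% in the control list, 1.06 points away. Chl1 followed at 1.45 points and Epha5, an ephrin receptor gene on chromosome 5, at 6.46 points, with 19.4% in the deleted list and 29.7% in the control list. Nearest to the genes elsewhere were Ccdc178 and Kcnn2 on chromosome 18, at 0.597 and 0.604 points, and Sntg1 on chromosome 1, at 1.23 points. The measure rests on 2 libraries and gives likeness of coverage alone.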

How the data were processed

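H3K9me3 peaks of 2 libraries were analysed, and the 2 input libraries were not analysed here. BWA 0.7.17-r1188, MACS2, ChIPseeker 1.30.3 and build mm10 come from the submitters' processing notes. The sources used here give no caller settings, use of the input or pooling. The deposited lists give each broad peak's position, the authors' fold enrichment (a linear ratio), a score, and −log10 values of the p-value and the q-value. Peak names and labels carry different replicate numbers, so condition alone assigned each list to its sample. Gene positions came from RefSeq for GRCm38.p6, without exons, so peaks were not placed in exons or introns.

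Peaks of the main chromosomes (1 to 19, X, Y) were merged within a list, and covered bases were counted with Python 3.11.15, numpy 2.4.6, pandas 2.3.3 and scipy 1.17.1, and drawn with matplotlib 3.10.9. The counting code was tested on simulated data. Sharing required 1 bp. The members and gene lists were chosen with earlier results of these data known. Named were all 10 genes, their 3 other family members, the 3 largest falls and rises among 27 partners, and the 3 long genes nearest to each group. Intervals are exact binomial and cover counting error only. Alternatives covered peak threshold, list size, joining, window, overlap, members left out, chromosome scaling and peak number.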

Additional observations from a re-analysis of the deposited data

How the results depend on the processing

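Over 16 results, 130 values were computed under other settings. Of these, 87 stayed within a set interval around the reported value or, for counts of genes, within 1.5 times it, and 43 did not. The interval was binomial, from peak numbers for log2 ratios and shares, and from kb of window taken as independent for differences. Covered kb lie in runs, so its width is a convention and not the error of the covered bases. Of 98 signed values (log2 ratios and differences), 17 took the opposite sign, 1 of them among the chromosome 6 genes and 16 elsewhere. The 4 chromosome 6 genes were covered less in the deleted list under all 7 alternatives run on every result, except Cntn4 at −log10 q of 3 or more, whose difference turned to 0.13 points (0.128% in the deleted list and 0% in the control list), where few peaks are left. For the 6 genes elsewhere, 14 of 42 differences and 2 of 15 log2 ratios turned in sign. Some of these stayed within that interval, since the reported differences there are small. No paired analysis was possible because each condition had 1 library, and no replicate could be left out. Covered length depends on sequencing depth, which is unknown.

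The log2 ratio of the chromosome 6 genes was -3.54 at −log10 q of 2 or more, -1.85 at 3 or more, -1.86 with peaks at or above their list's median fold, -0.99 with peaks joined within 5 kb, -0.23 relative to the rest of the chromosome and -0.49 by number of peaks. That of the genes elsewhere was -1.39 at 2 or more and -1.99 at 3 or more. It was 0.0036 with peaks at or above their list's median fold and 0.069 with the same number of peaks. The number of genes elsewhere covered less was 5 at 2 or more, 3 at 3 or more, 3 with peaks at or above the median fold, and 1 with the same number of peaks, with peaks joined within 5 kb and with 50 kb flanks. The deleted-list and control shares of peaks without a partner, over all 10 genes, were 41.2% and 51.1%. Over all peaks of the main chromosomes they were 49.9% and 47.0%, and these were not computed under the alternatives. Over the 10 genes the shares became 77.0% and 92.7% at 2 or more, and 100% and 100% at 3 or more. Only 3 deleted-list and 10 control peaks were left at 3 or more. The shares were 62.6% and 75.2% with peaks at or above the median fold, and 17.9% and 22.0% with joined peaks. Requiring 50% of the peak gave 60.4% and 76.9%, and counting a peak within 5 kb gave 4.59% and 7.57%. Fewer peaks remain under a stricter threshold, and joined peaks are longer. For the other values the cause was not tested.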
